A study of Mus musculus with 55 samples.

Results

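The genes described here are 9 genes of megakaryocytes and platelets: Pf4, Itga2b, Gp1ba, Gp5, Gp6, Gp9, Vwf, Selp and Cd9. They are grouped by their known products and are 9 of the 55421 genes in the count table of the first set of libraries. That set holds 46 bulk RNA-seq libraries of 6 populations sorted from mouse bone marrow. Long-term and short-term hematopoietic stem cells (LT-HSC and ST-HSC) are both lineage-negative, cKit+ and Sca1+ without CD48, and the first carries CD150 while the second lacks it. The myeloid side is held by the common progenitor (CMP), its granulocyte and macrophage branch (GMP) and its megakaryocyte and erythroid branch (MEP), which are Sca1- and were parted by CD34 and CD16/32, and the lymphoid side by the common lymphoid progenitor (CLP, CD127+). Each population was taken from wildtype (WT) mice and from mice labelled Tet2 knockout (Tet2-/-), with 4 libraries a group but 3 for LT-HSC and for ST-HSC of WT. The knockout was conditional: floxed Tet2 was deleted by Cre under the Mx1 promoter, which acts in blood cells and in other interferon-responsive cells, after poly(I:C) injection, and the mice were kept for weeks before the cells were taken. A second set of 9 LT-HSC libraries, 3 each labelled WT, Sting knockout (Sting-/-) and Tet2/Sting double knockout (DKO), is given as support. The mice were on a C57BL/6 background and young when the deletion was induced, per the study's methods. The labels do not say that replicates are separate mice, while the study's legends count its RNA-seq samples as mice.

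Megakaryocytes are the large marrow cells that shed platelets. Platelets stick to a damaged vessel wall through the GPIb-IX-V complex, whose chains are products of Gp1ba, Gp1bb, Gp9 and Gp5 and whose ligand is von Willebrand factor (Vwf). They respond to collagen through the receptor glycoprotein VI (Gp6), and they aggregate through an integrin whose alpha chain is CD41 (Itga2b). Their granules hold platelet factor 4 (Pf4), a chemokine, von Willebrand factor, and P-selectin (Selp), an adhesion molecule that moves to the surface on activation, while Cd9 is a tetraspanin of the platelet surface that many other cells also carry. Part of the LT-HSC pool is known to carry platelet-type transcripts such as Vwf, and Selp and Vwf are also made by endothelial cells.

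All 9 genes were found by symbol in the annotation of the mm10 genome (GENCODE vM21). Pf4 lies at chr5:90772435-90773383 on the plus strand, Itga2b at chr11:102453297-102470122 on the minus strand and Gp1ba at chr11:70639122-70642036 on the plus strand. Gp5 lies at chr16:30307685-30310779 and Gp6 at chr7:4363965-4397744, both on the minus strand, and Gp9 at chr6:87778072-87779768 on the plus strand. Vwf (chr6:125546774-125686679, plus strand) and Cd9 (chr6:125460266-125494791, minus strand) are neighbours on chromosome 6, and Selp is at chr1:164115264-164150026 on the plus strand. Itga2b overlaps Gm23563 and Gp6 overlaps Gm24752 and Gm25349 on the same strand. Selp overlaps Gm16548 and Gm16587, and Cd9 overlaps Gm26728 and Gm28809, on the opposite strand, and whether reads were counted by strand is not given in the sources used here.

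Upstream sequence from RefSeq (build GRCm38.p6) was found for 8 of the 9 genes, all but Vwf, and the 200 bases before the start that RefSeq gives were searched. That start can differ from the GENCODE coordinates above: the Itga2b window lies within its GENCODE gene and the Cd9 window in part. One motif was GATAA, which reads TTATC on the other strand and is the core bound by GATA factors. The other was GGAAG, which reads CTTCC on the other strand and is a core bound by ETS factors such as Fli1, and no match of one overlapped a match of the other. Printed here are 5 genes of contrasting pattern between populations: Pf4 and Gp9, high in LT-HSCs, Gp1ba and Gp5, highest in CMPs or MEPs, and Cd9, present in every population. Each is 5' to 3' on the gene's own strand, with both motifs in capitals.

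Pf4, chr5:90772235-90772434, plus strand: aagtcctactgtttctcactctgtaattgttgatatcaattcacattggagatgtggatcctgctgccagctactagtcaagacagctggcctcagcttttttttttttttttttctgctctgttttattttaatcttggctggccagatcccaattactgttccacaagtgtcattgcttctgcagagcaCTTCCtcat
Gp9, chr6:87777870-87778069, plus strand: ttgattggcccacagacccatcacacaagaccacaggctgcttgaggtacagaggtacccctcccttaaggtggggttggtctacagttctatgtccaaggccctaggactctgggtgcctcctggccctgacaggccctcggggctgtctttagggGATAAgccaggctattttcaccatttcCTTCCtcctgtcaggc
Gp1ba, chr11:70638922-70639121, plus strand: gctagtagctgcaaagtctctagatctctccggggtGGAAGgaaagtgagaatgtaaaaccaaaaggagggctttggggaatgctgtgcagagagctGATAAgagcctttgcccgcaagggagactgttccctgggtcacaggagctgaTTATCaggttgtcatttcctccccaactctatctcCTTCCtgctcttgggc
Gp5, chr16:30310782-30310981, minus strand: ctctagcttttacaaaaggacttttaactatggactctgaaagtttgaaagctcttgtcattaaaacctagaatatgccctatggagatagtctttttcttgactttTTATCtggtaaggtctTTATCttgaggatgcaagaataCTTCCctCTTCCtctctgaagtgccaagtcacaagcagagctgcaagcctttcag
Cd9, chr6:125494761-125494960, minus strand: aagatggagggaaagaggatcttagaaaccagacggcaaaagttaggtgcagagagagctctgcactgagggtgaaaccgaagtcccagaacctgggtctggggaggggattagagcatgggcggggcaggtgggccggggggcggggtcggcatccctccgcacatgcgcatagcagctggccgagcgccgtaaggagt

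GATAA in either orientation was present in 4 of the 8 windows, with 2 matches each before Gp1ba and Gp5 and 1 each before Gp6 and Gp9, against 18.1% of 32851 windows of the same length across the genome. GGAAG was present in 6 of the 8, all but Gp6 and Cd9, against 56.8% of those windows. These are matches of letters and no measure of binding.

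The first set had 50458473 to 102148079 counts per library and 13754 to 20964 genes detected, and the second 26776517 to 78682096 counts and 9382 to 11528 genes. Levels are given as CPM, counts relative to library size after scaling by the TMM method. A gene was called when its Benjamini-Hochberg adjusted p in edgeR's quasi-likelihood test was under 0.05 and its fold at least 2. The 8 HSC markers summed to 372 to 574 CPM in WT LT-HSCs and 534 to 654 in Tet2-/- LT-HSCs, with all 8 above 1 CPM in every one of these libraries, against 45.3 to 80.7 CPM in CMPs. Counts of the whole Tet2 gene do not resolve the deleted part, and Tet2 stood at 11.3 to 14.3 CPM in WT and 12.1 to 40.4 CPM in Tet2-/- LT-HSCs, so this gene does not check the labels. The CLP libraries spread widely: the 8 neutrophil and granule markers summed to 10.1 to 2292 CPM in WT and 2.34 to 10520 CPM in Tet2-/- CLPs. The Tet2-/- CLP library of replicate 3 stood apart, and the results of Tet2-/- LT-HSCs against CLPs that rest on it are given with and without it.

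Summed over the 9 genes, LT-HSCs and CMPs were highest among the WT groups. The sum was 941 to 960 CPM in WT LT-HSCs and 778 to 1113 CPM in WT CMPs, against 229 to 296 in ST-HSCs, 92.7 to 268 in MEPs, 126 to 205 in CLPs and 89.5 to 151 in GMPs. In CLPs nearly all of it was Cd9, and without Cd9 the sum there was 0.445 to 8.41 CPM, against 450.5 to 497 in LT-HSCs. In bulk libraries, more cells of a type and more RNA per cell cannot be told apart. Per kilobase of exon, the order of levels in WT LT-HSCs was Pf4 (479 CPM per kb), Cd9 (236), Gp9 (55.6), Selp (6.12), Itga2b (2.50), Vwf (1.69), Gp5 (1.17), Gp1ba (0.794) and Gp6 (0).

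**Figure D1:**
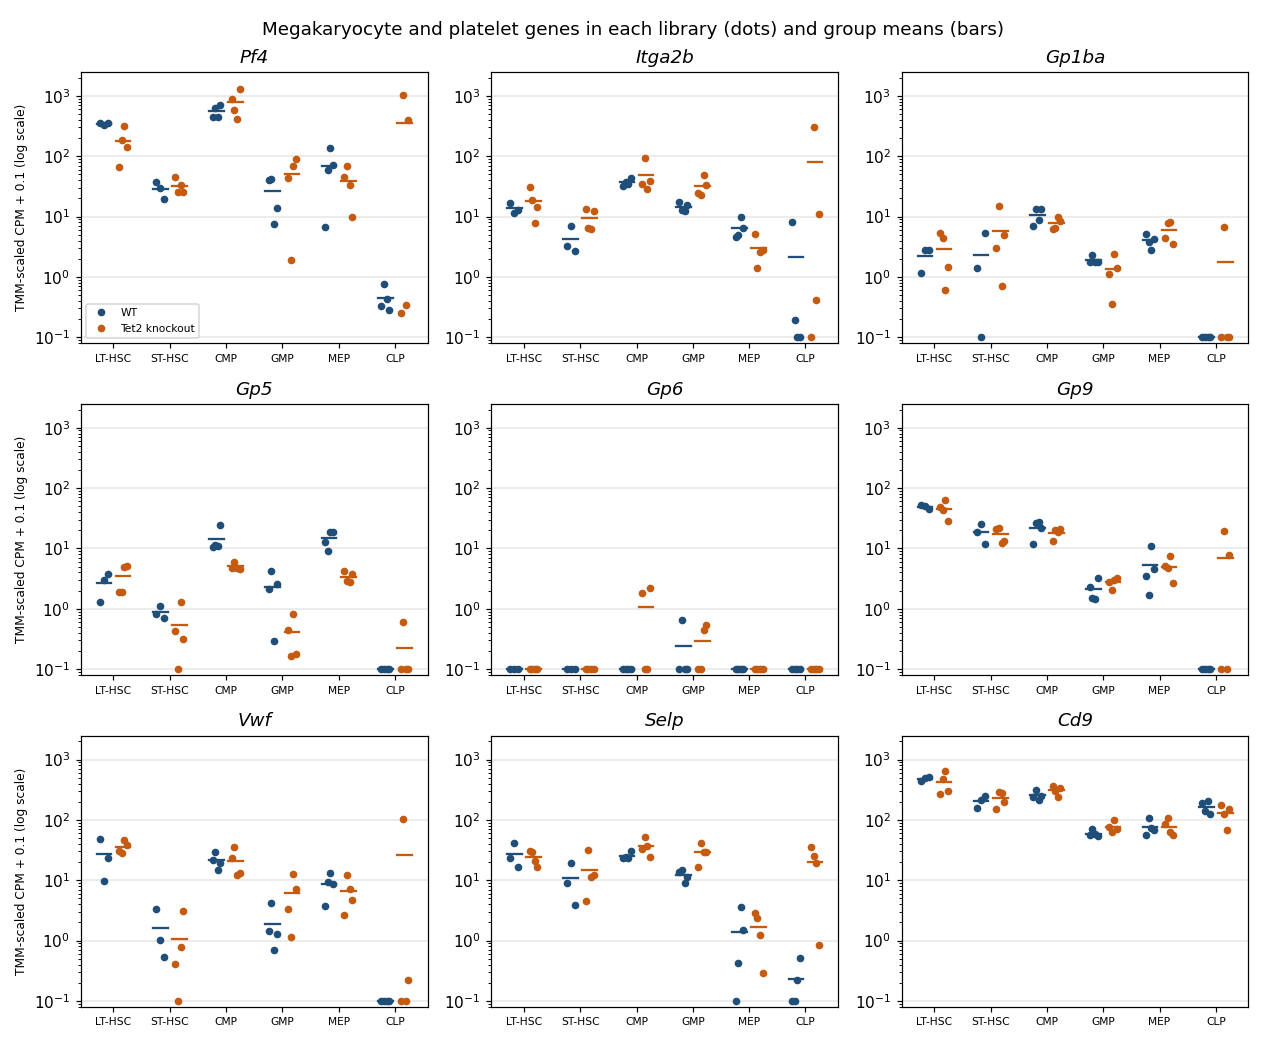
TMM-scaled CPM plus 0.1 on a log axis for each of the 9 genes in the 6 populations; dots are libraries, bars are group means, and colours separate WT from Tet2-/-. Pf4 stands at 334 to 352 CPM in WT LT-HSCs and 19.4 to 37.6 in WT ST-HSCs, while Gp6 is at 0 in all but 5 of the 46 libraries.

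Pf4, the granule chemokine, was the most abundant of the granule genes. It stood at 352, 334 and 351 CPM in the WT LT-HSC libraries and at 37.6, 29.1 and 19.4 CPM in the WT ST-HSC libraries. WT CMPs had 451, 639, 449 and 709 CPM, WT MEPs 6.53, 59.1, 137 and 72.6 CPM, and WT GMPs 40.5, 41.8, 7.57 and 13.96 CPM. The 4 CMP libraries lay above all 3 LT-HSC libraries, and these above every ST-HSC, MEP and GMP library. In WT CLPs Pf4 was nearly absent, at 0.187 to 0.675 CPM.

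Vwf and Selp, the other granule genes, had their highest means in WT LT-HSCs, where they overlapped with CMPs. Vwf stood at 48.9, 9.65 and 23.0 CPM in LT-HSCs, at 3.28, 0.917 and 0.430 in ST-HSCs and at 14.4 to 29.3 CPM in CMPs. MEPs had 3.66 to 12.9 CPM of Vwf and GMPs 0.589 to 4.13 CPM, and all 4 CLP libraries had no count. Every LT-HSC library was above every ST-HSC and GMP library, and 1 LT-HSC library fell within the range of MEPs. Selp stood at 23.4, 40.8 and 16.7 CPM in LT-HSCs, 8.92, 19.4 and 3.74 in ST-HSCs, 23.3 to 30.3 in CMPs, 8.74 to 14.5 in GMPs and 0 to 3.45 in MEPs. In WT CLPs it was at 0 to 0.415 CPM.

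The chains of the GPIb-IX-V complex did not share a pattern. Gp9 had its highest mean in WT LT-HSCs, with 53.3, 49.6 and 44.2 CPM, above 18.3, 25.3 and 11.8 CPM in ST-HSCs and 11.7, 26.4, 27.1 and 21.5 CPM in CMPs, with no overlap. MEPs had 1.60 to 11.1 CPM of Gp9, GMPs 1.37 to 3.20 CPM and CLPs none. Gp5 was instead highest in MEPs (12.8, 8.79, 18.8 and 18.3 CPM) and CMPs (10.5, 11.1, 10.8 and 23.9 CPM), which overlapped, and stood at 1.21, 2.84 and 3.66 CPM in LT-HSCs. Gp5 was at 0.597 to 1.01 CPM in ST-HSCs and 0.192 to 4.21 CPM in GMPs. Gp1ba, the chain that binds von Willebrand factor, had 6.78, 13.1, 8.77 and 13.2 CPM in CMPs and 2.67 to 5.13 in MEPs, against 1.05, 2.74 and 2.67 CPM in LT-HSCs. Its ST-HSC libraries held 1.31, 0 and 5.26 CPM, and like Gp5 and Gp9 it had no count in any WT CLP library, so its level is known only to lie under a floor of 0.0701 CPM (3 counts per library, averaged over the 4 libraries, for counting error only).

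Itga2b, the CD41 chain of the fibrinogen receptor, was highest in WT CMPs at 32.6 to 43.6 CPM. LT-HSCs (16.9, 11.2 and 12.8 CPM) and GMPs (17.1, 12.8, 12.1 and 15.3 CPM) overlapped, and MEPs (4.45 to 9.85 CPM) and ST-HSCs (3.15, 6.90 and 2.63 CPM) were lower. Gp6, the collagen receptor, had no count in 41 of the 46 libraries, and the other 5 had 0.338 to 2.15 CPM. Cd9 was found in every library, at 445, 499 and 506 CPM in WT LT-HSCs, 210.2 to 317 in CMPs, 156 to 251 in ST-HSCs, 125 to 204 in CLPs, 56.7 to 107 in MEPs and 53.0 to 69.4 in GMPs.

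Of the 45 steps between neighbouring populations in these WT orders, 10 passed the test. For Pf4 the steps from LT-HSC to MEP (adjusted p = 0.0195) and from GMP to CLP (1.06e-05) passed, while MEP, ST-HSC and GMP did not differ beyond their spread. For Gp9 the steps from ST-HSC to MEP (0.0251) and GMP to CLP (1.20e-06) passed. For Vwf the steps from MEP to GMP (0.0491) and ST-HSC to CLP (2.97e-05) passed, for Selp the step from MEP to CLP (0.0490), for Cd9 that from CLP to MEP (9.95e-05), for Gp1ba that from GMP to CLP (0.000483) and for Gp5 that from ST-HSC to CLP (3.24e-05). No step of Itga2b passed, and Gp6 was not tested. Among all genes, 12.6% were called between LT-HSCs and MEPs, 19.9% between GMPs and CLPs, 15.3% between ST-HSCs and MEPs, 14.7% between MEPs and GMPs, 24.5% between ST-HSCs and CLPs and 30.5% between MEPs and CLPs.

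**Figure D2:**
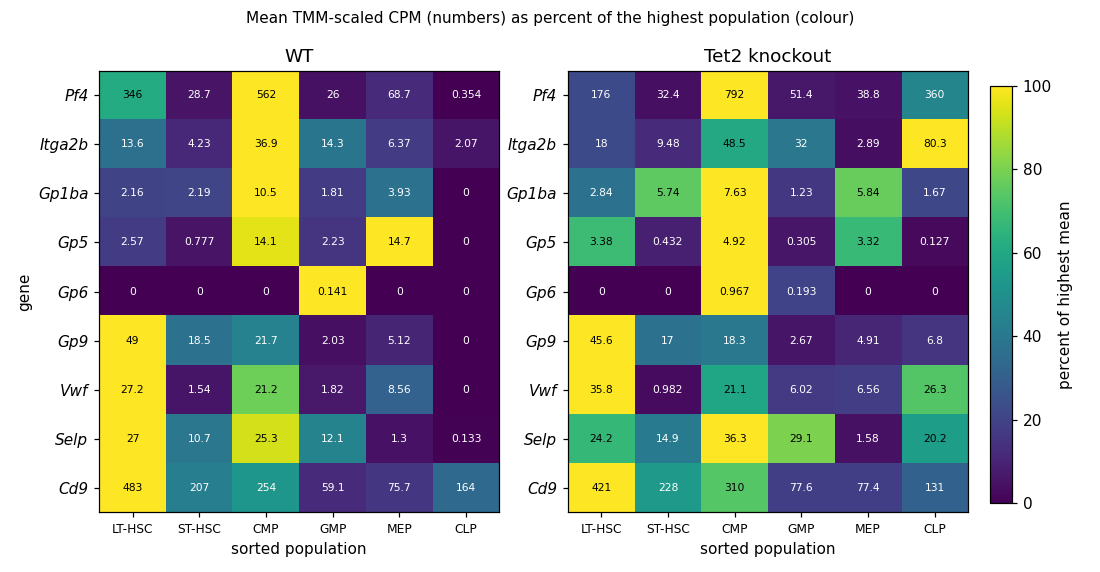
Heat maps of mean TMM-scaled CPM (numbers) for the 9 genes in the 6 populations of WT and Tet2-/- mice, coloured by the percent of the highest population mean of that gene and genotype. In WT, 4 genes (Gp9, Vwf, Selp, Cd9) have their highest mean in LT-HSCs and 3 (Pf4, Itga2b, Gp1ba) in CMPs.

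The question of platelet-type expression in LT-HSCs was then put as tests of WT LT-HSCs against each other population, in a fit of the 6 WT groups that tested 8 of the 9 genes. Gp6 was left out by the filter on low counts. Against ST-HSCs, Cd9 was the 1 gene called, 2.34-fold higher (log2 difference 1.21 ± 0.23 SE, adjusted p = 0.0338), with 0.175% of all genes called. Its call did not hold without any 1 WT LT-HSC or ST-HSC replicate (adjusted p 0.203 to 0.353 without replicate 2, 3 or 5). The fold differences of Pf4 (12.04-fold, log2 3.57 ± 0.77, adjusted p = 0.0733) and Vwf (17.6-fold, log2 4.10 ± 0.92, adjusted p = 0.108) were larger and did not pass. In the fit of these 2 populations alone, added after the data were seen, Pf4 was the 1 gene called (adjusted p = 0.0159), beside 0.209% of all genes. With DESeq2, Cd9, Pf4 and Vwf were called, and the share of all genes called there is not given. The 3 LT-HSC libraries lay above the 3 ST-HSC libraries for 6 of the 9 genes (Pf4, Itga2b, Gp5, Gp9, Vwf and Cd9), as they did for 9.05% of all genes of at least 1 CPM. The exact permutation test of 3 against 3 libraries cannot give a two-sided p below 0.1, which each of these 6 genes reached.

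Against CMPs no gene of the 8 was called, with 5.53% of all genes called. Cd9 passed on adjusted p alone (1.90-fold higher, adjusted p = 0.0110). Gp5 was at 0.183 of the CMP mean (log2 difference -2.46 ± 0.78, adjusted p = 0.0747) and Gp1ba at 0.206 (-2.28 ± 1.18, 0.292), with all 3 LT-HSC libraries below all 4 CMP libraries. Gp9 was 2.26-fold higher in LT-HSCs, again without overlap (1.17 ± 0.55, 0.239). In all, 4 genes lay lower in LT-HSCs without overlap (Gp5, Gp1ba, Itga2b and Pf4) and 2 higher (Gp9 and Cd9). The same held for 20.0% of genes of at least 1 CPM in the lower and 19.0% in the higher direction. In the fit of these 2 populations alone, the log2 differences were -2.44 for Gp5 (adjusted p = 0.0147), -2.27 for Gp1ba (0.0141), -1.43 for Itga2b (0.00445) and 1.18 for Gp9 (0.0283).

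Against GMPs, 4 of the 8 genes were called and all were higher in LT-HSCs, with 16.3% of all genes called. These were Gp9 (24.1-fold, log2 difference 4.53 ± 0.60, adjusted p = 4.69e-05), Vwf (15.0-fold, 3.87 ± 0.81, 0.00254), Pf4 (13.3-fold, 3.70 ± 0.69, 0.000659) and Cd9 (8.17-fold, 2.99 ± 0.22, 2.87e-08). The fold of Vwf moved with single libraries (log2 2.98 without WT replicate 2 and 5.08 without WT replicate 3). Its call held there and was lost with all 46 libraries in 1 fit (adjusted p = 0.0954). All 3 LT-HSC libraries were above all 4 GMP libraries for Selp, as for 27.8% of genes of at least 1 CPM. Selp was 2.24-fold higher and was not called (1.12 ± 1.15, adjusted p = 0.547). It was called in the fit of these 2 populations alone (1.23, adjusted p = 0.0162), which called 34.4% of all genes. The receptor genes Itga2b, Gp1ba and Gp5 had ratios of 0.952, 1.19 and 1.15 with overlapping libraries.

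Against MEPs, the population defined by its megakaryocyte and erythroid fate, 4 of the 8 genes were higher and 1 was lower in LT-HSCs, with 12.6% of all genes called. Selp was 20.8-fold higher (log2 difference 4.38 ± 1.26, adjusted p = 0.0226), Gp9 9.57-fold (3.28 ± 0.58, 0.000855), Cd9 6.38-fold (2.71 ± 0.22, 5.81e-08) and Pf4 5.03-fold (2.37 ± 0.66, 0.0195). Gp5 was at 0.175 of the MEP mean (-2.48 ± 0.78, 0.0438). Without replicate 2, 3 or 5 of the WT libraries 2 genes were called here, and without replicate 4, which LT-HSCs lack, 5. Selp, Pf4 and Gp5 lost their calls without replicate 2, 3 or 5, and Pf4 and Gp5 also with all 46 libraries in 1 fit (0.214 and 0.220). The log2 difference of Selp was 3.63 without replicate 3 (adjusted p = 0.175) and 5.50 without replicate 4 (0.0251), and that of Gp9 was 3.98 without replicate 4. Vwf was 3.18-fold higher without passing (log2 1.72, adjusted p = 0.145), its libraries overlapped, and without WT replicate 2 the log2 difference was 0.69.

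Against CLPs, 7 of the 8 genes were higher in LT-HSCs, with 26.0% of all genes called. Pf4 was 976-fold higher and Selp 202-fold, and Cd9 2.94-fold. The fitted log2 difference of Selp was 7.32, 6.51 without WT replicate 3 and 8.82 without WT replicate 5, with its call held, and that of Vwf was 9.84, and 9.14 without WT replicate 2. The other 4 had no count in WT CLPs, so their folds are lower bounds: at least 699-fold for Gp9, 388-fold for Vwf, 36.7-fold for Gp5 and 30.8-fold for Gp1ba. Itga2b had 1 CLP library at 8.18 CPM and did not pass (adjusted p = 0.110).

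In Tet2-/- mice the same comparisons called fewer of the 9 genes, except that against CMPs, where none was called in either genotype. This does not show a difference between genotypes, and in the fits of LT-HSCs and MEPs alone 6 of 8 were called in each (23.2% of all genes in WT and 22.5% in Tet2-/-). Against ST-HSCs (0.118% of all genes called) and CMPs (3.91%) no gene of the 9 tested was called. Against GMPs, Gp9 (17.1-fold, adjusted p = 0.0315) and Cd9 (5.42-fold, 3.07e-05) were higher in LT-HSCs, with 15.9% of all genes called, and Gp9 lost its call without Tet2-/- replicate 3, 4 or 5 (0.0776 to 0.144). Against MEPs, Selp (15.4-fold, 0.00303) and Cd9 (5.43-fold, 2.01e-05) were higher, with 14.1% of all genes called. Against CLPs, Gp5 (log2 4.46, 0.0404) and Cd9 (3.22-fold, 0.000617) were higher, with 20.7% of all genes called. Without CLP replicate 3, 5 genes were called. The share of all genes called in that fit is not given here, so its count has no background to be read against. The 1 Tet2-/- CLP library with counts of Gp5 was replicate 3, with 39. The call of Gp5 held without that library (log2 7.01, adjusted p = 0.000508, and 7.27 without all Tet2-/- libraries of replicate 3) and was lost without Tet2-/- replicate 2, 4 or 5 (log2 3.77 to 4.28, adjusted p 0.106 to 0.162). Vwf stood at 30.3, 28.2, 45.9 and 38.9 CPM in Tet2-/- LT-HSCs and 0.303, 0, 0.683 and 2.94 CPM in Tet2-/- ST-HSCs. These libraries did not overlap, as for 2.84% of genes of at least 1 CPM higher in LT-HSCs. The 36.5-fold ratio did not pass in this fit (log2 5.13, adjusted p = 0.449). Without Tet2-/- replicate 5, whose ST-HSC library was the highest, the log2 difference was 6.61, and with DESeq2 the adjusted p of Vwf was 0.0346.

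The effect of the genotype was then compared within each population, by a fit of its WT and Tet2-/- libraries. In LT-HSCs none of the 8 genes tested was called, and none had an unadjusted p under 0.05, with 0.0245% of all genes called. Pf4 stood at 65.5, 185, 313 and 142 CPM in Tet2-/- LT-HSCs, all 4 below the 3 WT libraries at 334 to 352 CPM. Its mean was at 0.510 of WT (log2 difference -0.97 ± 0.43, adjusted p = 0.967, exact two-sided permutation p = 0.0571), and the spread was wider in Tet2-/- (SD 103, n = 4) than in WT (SD 10.3, n = 3). All Tet2-/- libraries were below all WT libraries for 3.93% of genes of at least 1 CPM. The other genes overlapped between genotypes: Gp9 at 48.7, 42.9, 62.7 and 28.3 CPM, Selp at 30.0, 29.6, 21.0 and 16.4 CPM and Cd9 at 274, 469, 634 and 306 CPM in Tet2-/- LT-HSCs. In ST-HSCs none of the 8 tested was called either (0.0185% of all genes), and Itga2b, at 13.1, 6.49, 6.04 and 12.3 CPM, had the largest ratio among genes counted in every library (2.24, adjusted p = 0.861).

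**Figure D3:**
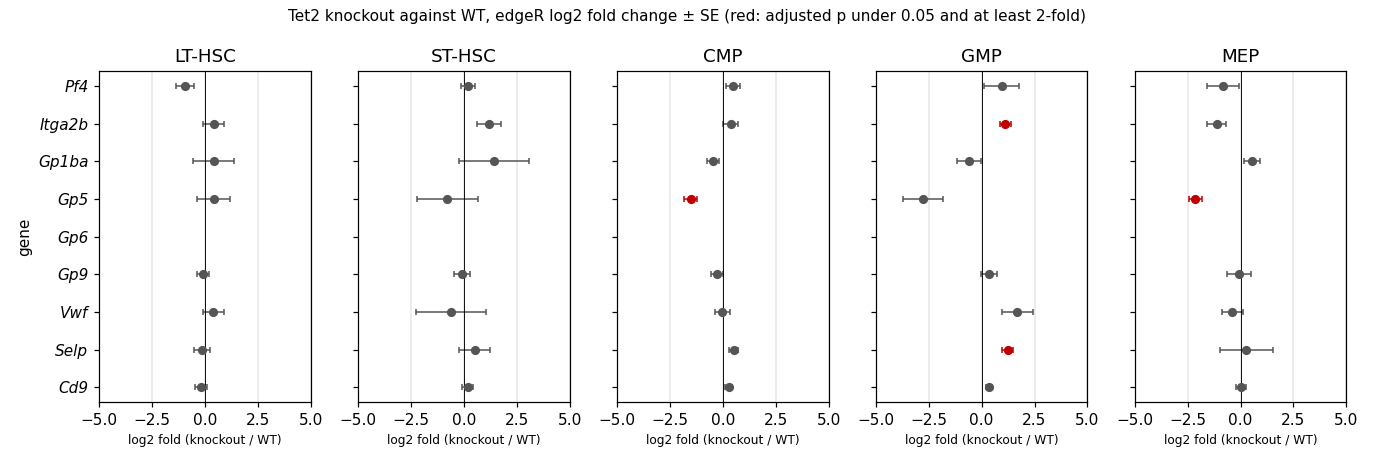
edgeR log2 fold change of Tet2-/- over WT, with a standard error derived from its test statistic, for the genes in 5 populations. CLPs are plotted by library instead. Red points passed an adjusted p of 0.05 and a 2-fold change, and Gp6, which was not tested, has no point. Gp5 passed in CMPs (-1.52) and MEPs (-2.14), and Itga2b (1.12) and Selp (1.23) passed in GMPs.

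Gp5 was lower in Tet2-/- CMPs and MEPs. In CMPs it stood at 4.64, 5.94, 4.64 and 4.47 CPM against 10.5, 11.1, 10.8 and 23.9 CPM in WT, a ratio of 0.349 (log2 difference -1.52 ± 0.32, adjusted p = 0.0206, exact permutation p = 0.0286, the smallest that 4 against 4 libraries allow). It was the 1 gene called of 8, and 3.92% of all genes were called lower and 4.57% in either direction. The call was lost without Tet2-/- replicate 2, 4 or 5 (adjusted p 0.0555 to 0.0643), and also with replicate number as a block. In MEPs Gp5 stood at 4.19, 2.79, 2.65 and 3.65 CPM against 12.8, 8.79, 18.8 and 18.3 CPM, a ratio of 0.226 (-2.14 ± 0.30, 0.00285, exact permutation p = 0.0286), again the 1 gene called of 8, with 4.21% of all genes called lower and 4.36% in either direction. That call held whichever library was left out. In GMPs the ratio was 0.137, at 0.342, 0.0644, 0.734 and 0.0813 CPM against 2.04, 4.21, 0.192 and 2.50 CPM, which overlapped and did not pass (-2.77 ± 0.93, 0.127, and -3.57 without Tet2-/- replicate 4), and in LT-HSCs it was 1.31 (0.41 ± 0.78, 0.998).

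Both Gp5 calls were lost when all 46 libraries shared 1 estimate of the spread (adjusted p 0.872 in CMPs and 0.621 in MEPs). The erythroid markers also differed between the MEP groups: the 9 genes summed to 591 to 1148 CPM in WT and 341 to 419 CPM in Tet2-/- MEPs, with 1 of the 9 at 0 in every library, and their part in the result was not tested. Library size differed between the CMP groups, at 63166885 to 70924660 counts in WT and 71372007 to 102148079 in Tet2-/-, and its part was not tested. A difference between the genotype effect in CMPs, GMPs and MEPs and that in LT-HSCs and ST-HSCs, tested after Gp5 was seen, was not called for any of the 9 genes (1.62% of all genes called), with -1.93 ± 1.07 and adjusted p = 0.703 for Gp5.

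In GMPs, Itga2b and Selp were higher in Tet2-/- cells. Itga2b stood at 24.4, 22.3, 48.3 and 32.9 CPM against 17.1, 12.8, 12.1 and 15.3 CPM in WT, 2.23-fold higher (log2 difference 1.12 ± 0.24, adjusted p = 0.0179, exact permutation p = 0.0286). Selp stood at 16.6, 42.0, 28.9 and 29.0 CPM against 13.8, 14.5, 8.74 and 11.3 CPM, 2.41-fold higher (1.23 ± 0.27, 0.0169, exact permutation p = 0.0286). All Tet2-/- libraries were above all WT libraries for both genes, as for 6.98% of genes of at least 1 CPM. Of the 8 genes tested 2 were called, with 0.308% of all genes called higher and 4.37% in either direction. Vwf was higher without passing (log2 1.69, adjusted p = 0.263, and 0.999 without Tet2-/- replicate 4 or 2.46 without WT replicate 3), and Cd9 was 1.31-fold higher (0.282). The 5 macrophage markers summed to 96.7 to 140.0 CPM in WT and 143 to 182 CPM in Tet2-/- GMPs, which did not overlap. Their part in the result was not tested. Itga2b lost its call without WT replicate 3 or 4, and its fold fell under 2 without Tet2-/- replicate 4 (log2 0.84). Selp lost its call without Tet2-/- replicate 3 or WT replicate 4 or 5 (adjusted p 0.0513 to 0.0568), and neither was called with all 46 libraries in 1 fit. With replicate number as a block, 1 of the 8 genes was called. In MEPs Itga2b went the other way without being called, at a mean of 2.89 CPM in Tet2-/- against 6.37 CPM in WT (log2 -1.13).

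Gp6 was counted in 2 of 4 Tet2-/- CMP libraries, at 1.72 and 2.15 CPM, and in none of the 4 WT CMP libraries. Against the floor of 3 counts per library this mean is at least 24.2-fold higher, a ratio that rests on these 2 libraries. Neither Pf4 (ratio 1.41, adjusted p = 0.485) nor Vwf (0.996, 0.986) was called in CMPs, where Pf4 spread from 418 to 1285 CPM in Tet2-/- libraries.

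The genotype effect in LT-HSCs was compared with the mean effect in the other 5 populations in a fit of all 46 libraries. None of the 9 genes was called, with 0.139% of all genes called, and the largest difference for a gene counted in every group was that of Pf4 (-3.12 ± 1.30, adjusted p = 0.725), which the CLP libraries enter. Without Tet2-/- CLP replicate 3 it was -2.82 (0.752). With DESeq2, Gp1ba, Gp9 and Vwf, which had no count in WT CLPs, were called. The share of all genes called there is not given.

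In CLPs, which lie on the lymphoid side, 4 of the 9 genes passed the filter on low counts and none was called by edgeR in the fit of the CLP libraries, with 0.00766% of all genes called. With all 46 libraries in 1 fit, 7 of 9 were called, with 6.61% of all genes called. Single Tet2-/- libraries were nevertheless high. Pf4 stood at 0.154, 1046, 0.240 and 392 CPM in replicates 2, 3, 4 and 5, and Itga2b at 0, 310.0, 0.319 and 10.98 CPM. In replicate 3 Vwf stood at 105 CPM, Gp9 at 19.5, Gp1ba at 6.66 and Gp5 at 0.509 CPM. The other 3 libraries held 0 to 0.1195 CPM of Vwf and no count of Gp1ba or Gp5. Gp9 stood at 7.66 CPM in replicate 5 and had no count in replicates 2 and 4. The sum without Cd9 was 1513 CPM in replicate 3, above the highest WT CMP library (861 CPM). In replicate 5 that sum was 412 CPM, against at most 8.41 CPM in WT CLPs.

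Selp was high in a different set of these libraries, at 35.9, 25.1, 19.2 and 0.732 CPM against 0, 0, 0.119 and 0.415 CPM in WT. All 4 Tet2-/- libraries were above all WT libraries (exact permutation p = 0.0286, edgeR adjusted p = 0.999992), as for 2.02% of genes of at least 1 CPM. Endothelial markers, whose cells also make P-selectin, summed to 359, 32.7, 88.8 and 107 CPM in replicates 2 to 5 of Tet2-/- and 57.9, 62.1, 320 and 202 CPM in WT CLPs. The granule gene Mpo stood at 7173 CPM in Tet2-/- replicate 3 and at 1.69 CPM in replicate 2, and the 8 neutrophil and granule markers summed to 10520 and 2.34 CPM there. In Tet2-/- replicates 4 and 5 these 8 markers summed to 1955 and 3391 CPM. They summed to 26649 to 37657 CPM in WT GMPs and 2575 to 3704 CPM in WT CMPs, which were also sorted as lineage-negative cKit+ cells. The part of the endothelial and granule markers in the CLP values was not tested.

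**Figure D4:**
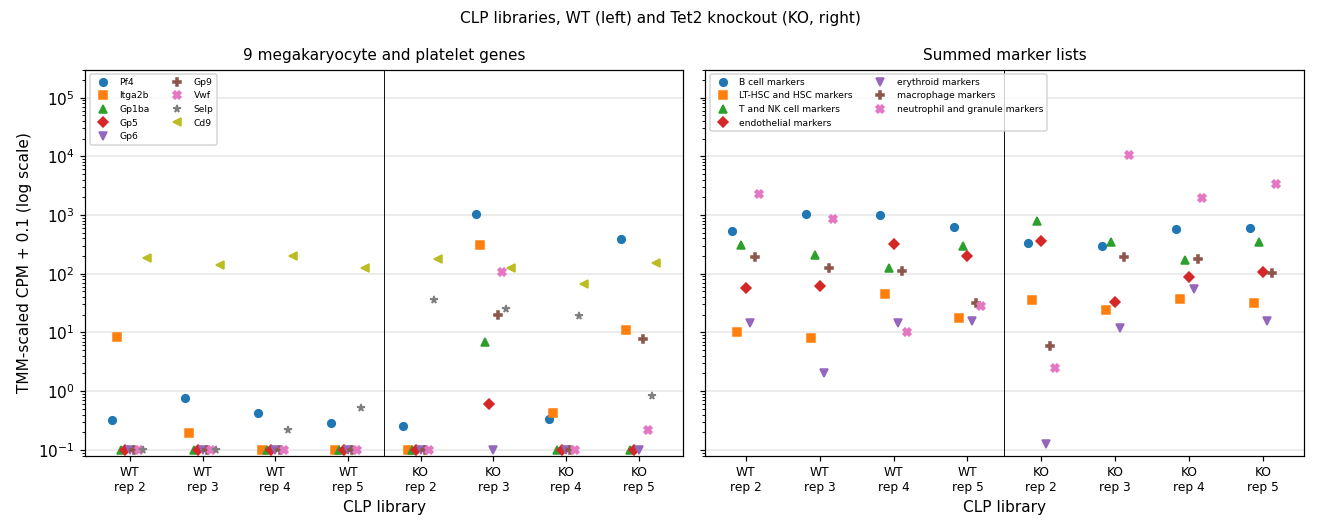
TMM-scaled CPM plus 0.1 on a log axis in the 8 CLP libraries, WT left and Tet2-/- right; the left panel shows the 9 genes and the right panel the summed CPM of marker lists of other cell types. Tet2-/- replicate 3 has 1046 CPM of Pf4 and 10520 CPM of neutrophil and granule markers, and Tet2-/- replicate 2 has 0.154 CPM of Pf4 and 35.9 CPM of Selp.

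Other genes of the platelet program were taken from 4 lists of 43 genes in all. Between Tet2-/- and WT, no gene of any list was called in LT-HSCs, ST-HSCs or CLPs. Among 12 adhesion and agonist receptors, 2 of 11 tested fell in Tet2-/- CMPs, where 3.92% of all genes were called lower. Gp1bb, the partner chain of Gp1ba, stood at 1.10, 1.02, 0.768 and 0.701 CPM against 10.3, 12.4, 20.6 and 24.7 CPM in WT (log2 difference -4.22 ± 0.37, adjusted p = 0.000172). P2ry1, an ADP receptor, fell from 42.0 ± 5.6 to 18.0 ± 5.4 CPM (-1.23, 0.0137). The ± on a mean CPM is the SD over libraries, here and below. Gp1bb also fell in MEPs, at 0.165, 0.182, 0.0904 and 0 CPM against 1.04, 1.46, 6.27 and 4.04 CPM (-4.56 ± 1.03, 0.0319), the 1 gene of 8 tested, beside 4.21% of all genes called lower. That call was lost without Tet2-/- replicate 2, 3 or 4 or WT replicate 4 or 5 (adjusted p 0.058 to 0.114). In GMPs, where it was filtered out, WT libraries held 0.657 to 1.58 CPM of Gp1bb and Tet2-/- libraries 0 to 0.235 CPM. Its genotype effect differed between CMPs, GMPs and MEPs together and the HSC populations (-5.57 ± 1.47, 0.0375), in the comparison added after Gp5 was seen. Its HSC side is near 0, with 83, 0 and 0 counts in WT LT-HSCs and none in WT ST-HSCs. The value was -7.84 without WT replicate 2 and -4.38 without Tet2-/- replicate 4, and the call was lost without Tet2-/- replicate 2 or 4 or WT replicate 3, 4 or 5 (adjusted p 0.0604 to 0.999968). Gp1bb (chr16:18620317-18622403) overlaps Sept5 and Gm49601 on its strand, which extend beyond it. Sept5 had at most 13 counts and Gm49601 at most 4 in any CMP library, and neither had a count in MEPs, against 695 to 1896 counts of Gp1bb in WT CMPs.

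Among the 8 granule and secreted protein genes, Mmrn1, a platelet granule protein, rose in Tet2-/- CMPs (15.96 ± 4.67 to 38.4 ± 3.56 CPM, log2 1.25, adjusted p = 0.0128). It was 1 of 7 tested, beside 0.654% of all genes called higher and 4.57% in either direction in CMPs. Among 13 genes of cytoskeleton and signalling, Rasgrp2, an activator of the GTPase that switches on platelet integrins, fell in CMPs from 49.3 ± 0.9 to 18.2 ± 1.1 CPM (-1.45, 0.000169). Pde5a, a phosphodiesterase of cyclic GMP, rose (1.43, 0.0342), so that 1 of 11 tested rose and 1 fell, and Pde5a lost its call without any 1 of 6 of the 8 libraries (adjusted p 0.0689 to 0.104). Among 10 transcription factors of the lineage, Gata2 fell in CMPs, from 64.8 ± 45.1 to 9.02 ± 3.29 CPM (-2.86, 0.00944), and in GMPs, from 33.5 ± 9.0 to 15.6 ± 7.2 CPM (-1.13, 0.0479), where 4.37% of all genes were called. The call in GMPs was lost without any 1 of 7 of the 8 libraries (adjusted p 0.0511 to 0.143). The other 9, Gata1, Fli1, Nfe2, Gfi1b, Zfpm1, Runx1, Tal1, Meis1 and Mef2c, were not called between genotypes in any population. In LT-HSCs abundant genes of each list differed between genotypes by -0.27 to -0.09 for receptors (Fcer1g, P2rx1 and Itgb3) and by -0.79 to 0.73 for granule proteins (Mmrn1, Clu, Nbeal2 and Ppbp), on the log2 scale. The range was -0.08 to 0.40 for signalling genes (Rgs18, Tbxas1, Fermt3 and Gng11) and -0.44 to 0.39 for factors (Meis1, Runx1, Fli1 and Gfi1b), all at an edgeR adjusted p of 0.998. With all 46 libraries in 1 fit, of the genotype calls of list genes given here that of Rasgrp2 alone was kept. The medians of the lists in LT-HSCs were 0.08, 0.09, -0.07 and 0.14 on the log2 scale for receptors, granule proteins, signalling and factors, beside 0.06 over all genes tested.

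Between WT LT-HSCs and other populations, these lists held genes in both directions. All 43 genes were tested. Against ST-HSCs none was called. Against CMPs, where 5.53% of all genes were called, Ptgs1 (cyclooxygenase 1, log2 1.93, adjusted p = 0.0408) and Meis1 (1.37, 0.0221) were higher in LT-HSCs, and F13a1 (coagulation factor XIII A chain, -8.40, 0.00768), Rasgrp2 (-2.15, 0.000687) and Fermt3 (kindlin 3, -1.19, 0.000599) were lower. Against GMPs, with 16.3% of all genes called, 3 receptors were higher and Fcer1g was lower (-1.26). The higher ones included Clec1b, which binds podoplanin (5.93), and Treml1 (3.25). Mmrn1 (8.65) and Ppbp, a granule chemokine (7.22), were higher and Serpine2 (-4.33) and F13a1 (-10.60) lower. Rab27b (3.73), Rgs18 (2.65) and Tbxas1 (2.48) were higher, as was Alox12, with 1.79 ± 0.57 CPM in LT-HSCs and no count in GMPs, as were Gfi1b (4.54) and Meis1 (2.79), while Rasgrp2 (-3.30) and Fermt3 (-1.36) were lower.

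Against MEPs, with 12.6% of all genes called, no list gene was called lower in LT-HSCs. Those called higher included Clec1b (5.74), Itgb3, the beta chain that pairs with CD41 (3.55), Fcer1g (3.44), Mmrn1 (6.06), Nbeal2 (3.12), Mylk (7.71), Ptgs1 (5.14), Tbxas1 (4.197), Plek (2.21), Meis1 (3.66), Mef2c (2.20), Fli1 (2.06) and Runx1 (1.52). Against CLPs, 18 were higher and 5 lower, beside 26.0% of all genes called. The higher ones counted in CLPs included Tbxas1 (9.97), Mmrn1 (5.86), Gfi1b (5.75), Clu (4.82), Gng11 (4.08), Tal1 (3.93), Meis1 (3.90), Rgs18 (3.77), Gata1 (2.97), Zfpm1 (2.90) and Rab27b (2.81). Treml1, Clec1b, P2ry12, Ppbp, Alox12 and Ptgs1 were higher with no count in CLPs. F13a1 (-7.66), Fcer1g (-1.88), Rasgrp2 (-1.54) and Fermt3 (-1.24) were lower, as was Cd226, which had no count in LT-HSCs.

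Across the 46 libraries, the genes most like each member were ranked by Pearson's r of log2(CPM + 1) over 10619 genes. These values describe libraries that share populations and depth, and carry no test. Leaving out Tet2-/- CLP replicate 3 moved r between Vwf and Slamf1 to 0.834. Pf4 was most like Treml1 (r = 0.915) and Rab27b (0.847), and then like Vwf (0.801) and Gp9 (0.793). Gp9 had Sgce among its 5 nearest (0.903), and Vwf was most like Treml1 (0.839), with Slamf1, which encodes the CD150 of the LT-HSC gate, as its 5th gene (0.732). Gp5 was most like Syngr1 (0.833) and had Gata1 among its 5 nearest (0.784), as had Gp1ba (0.676), whose nearest gene was Mfsd2b (0.738). Itga2b was most like Serpinb10 (0.799), Selp most like Gchfr (0.881) with Erg among its 5 nearest (0.766), and Cd9 had S100a13 (0.816) and Esam (0.806). The nearest gene of Gp6 reached r = 0.442 only, over values that were mostly 0.

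In the second set of LT-HSC libraries 6 of the 9 genes passed the filter on low counts, and all of these but Cd9 varied widely from library to library. Gp5 had 5 and 8 counts in 2 libraries and none in the other 7, and Gp6 had 2 counts in 1 library. Tmem173, which encodes Sting, had 1788, 1168 and 0 counts in the libraries labelled WT, 6333, 0 and 3835 in those labelled Sting-/-, and 0, 14 and 1128 in those labelled DKO. At 122 and 63.5 CPM, 2 of the 3 libraries labelled Sting-/- lay above every library labelled WT (at most 45.3 CPM). These are RNA counts of the whole gene and do not measure the protein, so they do not check the label. The group names of this set therefore stand for labels only. By western blot, the paper reports that STING protein was lost in bone marrow cells of its Sting-/- and DKO mice. Tet2, whose whole-gene counts do not resolve the deleted part, had 977, 0 and 0 counts in the libraries labelled WT and 1342, 1433 and 56 in those labelled DKO. The groups also differed in genes of the sex chromosomes: Xist stood at 89.7 to 240.5 CPM in WT and 0 to 15.5 CPM in the other 6 libraries, and the Y-linked Ddx3y at 0 to 0.0584 CPM in WT and 20.8 to 162 CPM in the others. The sex of the mice and the Sting label therefore cannot be told apart. In the first set Xist stood at 582 to 3554 CPM and Ddx3y at 0 in all 46 libraries.

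Of the 9 genes, 6 passed the filter and none was called in any pair of groups of the second set (0.657% of all genes called between DKO and WT, 0% between Sting-/- and WT, and 0.159% between DKO and Sting-/-). Cd9 stood at 617, 382 and 449.7 CPM in the libraries labelled Sting-/- and 196, 294 and 227 CPM in those labelled WT, 2.02-fold higher with no overlap (log2 1.01 ± 0.29, unadjusted p = 0.00901, adjusted p = 0.709 by edgeR), and at 376, 222 and 447 CPM in DKO. All libraries labelled Sting-/- were above all labelled WT for 5.40% of genes of at least 1 CPM. Of the 6 genes, Cd9 was the 1 gene with an unadjusted p under 0.05 in these pairs. Pf4 stood at 31.1, 0.0877 and 23.3 CPM in the libraries labelled WT, 290, 59.0 and 16.7 in those labelled Sting-/- and 44.8, 53.0 and 0 in those labelled DKO. Vwf stood at 55.9, 0 and 26.5 CPM, at 0, 27.4 and 15.7 CPM and at 0, 0 and 30.5 CPM in the same groups, and Gp9 at 18.5, 45.8 and 29.6, at 0, 13.7 and 39.2 and at 0, 4.95 and 37.7 CPM. Single libraries thus held no count of a gene that others of the same label held above 20 CPM. Gp1ba had 69.0 CPM in 1 DKO library and at most 0.1697 CPM in the other 8.

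**Figure D5:**
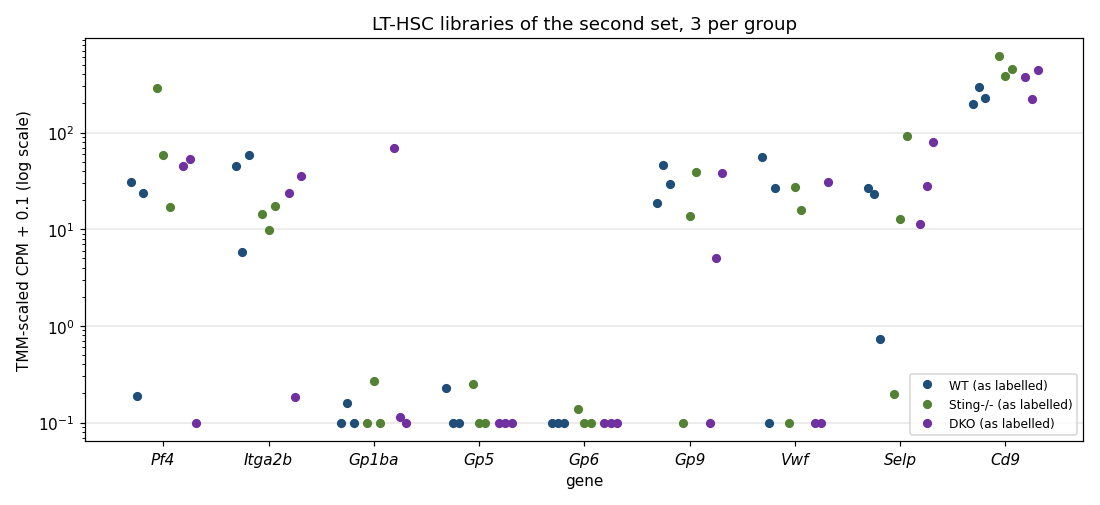
TMM-scaled CPM plus 0.1 on a log axis of the 9 genes in the 9 LT-HSC libraries of the second set, 3 per label; each dot is a library. Cd9 lies between 196 and 617 CPM in every library, while Pf4, Vwf, Selp and Gp9 span from under 1 CPM to above 20 CPM within a label.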

How the data were processed

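RNA of small numbers of sorted bone marrow cells was amplified and sequenced with a SMART-seq kit, per the labels. Per the labels and methods, the authors trimmed and aligned the reads, and the submitters' processing notes name Trim Galore 0.6.7, HISAT2 7.5.0, DESeq2 and the builds mm10 and mm9. The deposited values are raw read counts per gene in 2 tables, and the counting program and its strand setting are not given in the sources used here. The tables were scaled and tested separately.

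The 9 genes and all lists were chosen with earlier results of these data known. Counts were filtered (filterByExpr), scaled by TMM and tested across all genes with edgeR 4.0.16 (quasi-likelihood, prior count 2) in R 4.3.3, with Benjamini-Hochberg adjustment. The SE of a log2 difference was not given by edgeR. It was taken as the absolute log2 difference divided by the square root of the F statistic of its test. Genotypes were compared within a population, and populations in 1 fit of the 6 groups of a genotype. Named genes were the 9 members, each list gene called in a comparison (otherwise the 4 of highest mean CPM, given here for genotypes in LT-HSCs only) and the 5 genes most like each member, of which the text gives some. 1 list gene is not reported here. Single genes were also tested by two-sided exact permutation of log2(CPM + 1). Lower bounds on folds use a floor of 3 counts per library. Alternatives were DESeq2 1.42.0, RLE scaling, fits that kept low genes, a joint fit of every library, replicate number as a block, each replicate left out, and, added after the data were seen, fits of only the 2 populations compared and without Tet2-/- CLP replicate 3. The counts per library limit precision for genes near 0, and PCR reads are not independent molecules.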

Additional observations from a re-analysis of the deposited data

Results flagged for a closer look

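In 11 of 79 groups of 4 libraries tested, 1 library lay far from the other 3 by Dixon's test, which flags about 1 group in 20 by chance. Of these, 4 were the Tet2-/- CLP library of replicate 3, the highest of its group for Itga2b (310.0 CPM), Vwf (105 CPM), Gp1ba (6.66 CPM) and Gp5 (0.509 CPM). WT CLP replicate 2 was the highest for Itga2b (8.18 CPM). In CMPs, replicate 3 of Tet2-/- was the highest for Itga2b (93.2 CPM) and Gp5 (5.94 CPM), and replicate 5 of WT for Gp5 (23.9 CPM) and Selp (30.3 CPM). WT GMP replicate 3 was the highest for Gp1ba (2.25 CPM) and Gp6 (0.563 CPM). For Gp1ba and Gp5 in Tet2-/- CLPs and Gp6 in WT GMPs the other 3 libraries had no count. There, any count in the remaining library would be flagged. The Gp5 difference in CMPs passed the test without either of its 2 libraries named here.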

How the results depend on the processing

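None of the 27 called differences of the 9 genes changed direction under any alternative. Of the 165 differences in the 21 comparisons taken through the alternatives, which leave out the neighbouring steps, 35 took the opposite sign under at least 1 alternative, none of them called in either fit. Of the counts of the 9 genes called, 116 stayed within 1.5 times the main count and 24 moved. With DESeq2, 2 genes were called between genotypes in CMPs and 3 in CLPs, 3 between LT-HSCs and ST-HSCs and 1 between LT-HSCs and CMPs in WT, 1 between LT-HSCs and ST-HSCs in Tet2-/-, and 3 in the test of the genotype effect in LT-HSCs against the other populations. With all libraries in 1 fit, 0 were called between genotypes in CMPs, GMPs and MEPs, 7 in CLPs, 0 between LT-HSCs and ST-HSCs and 3 between LT-HSCs and MEPs in WT. Without the low-count filter, 0 were called between LT-HSCs and ST-HSCs in WT and 1 between LT-HSCs and CLPs in Tet2-/-. With adjusted p alone, 1 was called between LT-HSCs and CMPs in WT. In fits of only the 2 populations, chosen after seeing the data, 4 were called between LT-HSCs and CMPs in WT (2154 of 16576 genes in all), and 2, 4, 6 and 1 between LT-HSCs and CMPs, GMPs, MEPs and CLPs in Tet2-/- (9.71%, 29.9%, 22.5% and 8.45% of all genes). The share of all genes called is given only for the fits of 2 populations and, in CLPs, for all libraries in 1 fit. The other counts of this paragraph, those of DESeq2 among them, have no background to be read against. Why the counts moved was not tested.

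Same-numbered libraries did not have every pair's correlation of deviations over 0.1 in any comparison given above, so the numbers were not read as pairs. In 1 comparison that is not described, CMPs against MEPs in Tet2-/-, they did (0.12 to 0.21). With the replicate block, 0 genes were called between genotypes in CMPs and 1 in GMPs, and 1 each between LT-HSCs and GMPs and CLPs in Tet2-/-.

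Leaving out 1 replicate at a time gave 0 to 1 calls between genotypes in CMPs, 0 to 2 in GMPs and 1 to 1 in MEPs. In WT it gave 0 to 2 calls between LT-HSCs and ST-HSCs, 0 to 1 against CMPs, 4 to 4 against GMPs, 2 to 5 against MEPs and 7 to 8 against CLPs, and 7 to 10 neighbouring steps. In Tet2-/- it gave 1 to 3 calls against GMPs, 2 to 2 against MEPs and 1 to 5 against CLPs, 5 without the CLP library of replicate 3. In the remaining comparisons it gave 0. The share of all genes called is not given for fits with the block or without a replicate, so these counts have no background here.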
